A study of Homo sapiens with 32 samples.

Results

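The genes described here are 44 human genes of DNA interstrand crosslink repair, direct reversal of alkylation damage and homologous recombination, listed by symbol for what their products do. The rule for membership uses no measured value, but the list was drawn up with earlier results of these data known. Of the 44, 39 had a probe paired with them in the platform annotation used, and 5 had none and are not analysed here. The brightest probe stood for each gene. Of the 39, 32 passed the filter on dim probes, which kept the 60% of probes with the highest mean level, and 7 lay below it. The 32 tested genes were 6 of 9 of the Fanconi core complex and its ubiquitin-conjugating enzyme, 1 of the 2 monoubiquitinated Fanconi proteins, 5 of 10 recombination factors, all 7 structure-specific nucleases, 3 of 5 end-processing factors, 3 of 4 translesion factors, all 3 direct-reversal enzymes and all 4 checkpoint kinases.

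RNA of PC-3 cells, a long-established line from a human prostate adenocarcinoma that grows as a monolayer, was measured on 32 Illumina bead arrays. Cells received vehicle, cyclophosphamide (called inactive in the labels) or 4-hydroperoxycyclophosphamide (called active), and RNA was taken after 10, 24 or 48 h. For the active compound, vehicle had 3 arrays per time, and treatment had 2 arrays after 10 h, 2 after 24 h and 3 after 48 h. For the inactive compound, each arm had 3 arrays after 10 h, 3 after 24 h and 2 after 48 h. All groups share the cell line, and each experiment had vehicle arrays of its own. The treatment protocol gives 5.5 µM with both compounds, whereas the study's design description names it for the active one alone, so the dose of the inactive one is less certain. Whether the replicate arrays are separate cultures is not stated in the labels; the p-values therefore reflect spread between arrays only, which may be technical.

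Cyclophosphamide is a prodrug that liver enzymes oxidise. The hydroperoxy derivative releases the same 4-hydroxy metabolite in medium without that step, and the phosphoramide mustard formed from it alkylates guanine and joins the strands of DNA. In crosslink repair the Fanconi core complex ubiquitinates a pair of Fanconi proteins at a stalled fork, nucleases unhook the crosslink, translesion polymerases fill the gap, and homologous recombination restores the broken strand. The kinases ATM and ATR and their effectors CHEK2 and CHEK1 act largely by phosphorylation, which an expression array does not measure.

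Raw intensity at the 75th percentile was between 431 and 656 for arrays of the active compound and between 275 and 416 for those of the inactive one. The median residual SD of the 32 genes was 0.112 log2 units in the former experiment and 0.193 in the latter, beside 0.110 and 0.186 over all 10598 genes tested. No pair of arrays held identical values. Of 7 epithelial markers of PC-3, 6 passed the filter (KRT8, KRT18, KRT19, EPCAM, CD44 and CAV1), while CDH1 lay below it. KLK3, the prostate-specific antigen that PC-3 cells lack, was below the filter too, TMPRSS2 passed it, and 1 of 6 fibroblast and 3 of 6 leukocyte markers did. Along the axis from the 10 h to the 24 h arrays of the inactive-compound experiment, 4 arrays lay on the side of the other time: the vehicle and the treated array of replicate 3 at 10 h, and the same pair at 24 h. In the active-compound experiment 1 array did, vehicle replicate 3 at 10 h. Results of the inactive compound are therefore given with and without those 4 arrays.

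Promoters of 4 of the genes are shown because EXO1 and MGMT were the members called against vehicle, and RAD54L and ALKBH3 were among the members with the smallest p in the change over time below. Each is the 250 bases before the start used in the RefSeq promoter table of GRCh38.p14, on the plus strand. They lie at chr1:241847954-241848203 for EXO1, chr10:129466991-129467240 for MGMT, chr1:46247438-46247687 for RAD54L and chr11:43880581-43880830 for ALKBH3. Capitals mark a GC box (GGGCGG, the word bound by Sp1-type factors) or a CCAAT box (CCAAT, the word of NF-Y), on either strand, and words that overlap run together.
EXO1: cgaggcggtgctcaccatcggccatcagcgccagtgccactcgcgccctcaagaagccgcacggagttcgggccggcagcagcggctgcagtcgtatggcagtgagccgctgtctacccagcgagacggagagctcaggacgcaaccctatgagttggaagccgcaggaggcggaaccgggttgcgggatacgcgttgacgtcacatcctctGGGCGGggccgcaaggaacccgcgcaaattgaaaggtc
MGMT: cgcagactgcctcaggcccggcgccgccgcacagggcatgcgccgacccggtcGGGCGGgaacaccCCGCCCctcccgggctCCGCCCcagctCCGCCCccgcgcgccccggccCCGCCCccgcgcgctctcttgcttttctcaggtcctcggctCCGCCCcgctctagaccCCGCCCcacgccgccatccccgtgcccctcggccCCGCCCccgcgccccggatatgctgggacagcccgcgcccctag
RAD54L: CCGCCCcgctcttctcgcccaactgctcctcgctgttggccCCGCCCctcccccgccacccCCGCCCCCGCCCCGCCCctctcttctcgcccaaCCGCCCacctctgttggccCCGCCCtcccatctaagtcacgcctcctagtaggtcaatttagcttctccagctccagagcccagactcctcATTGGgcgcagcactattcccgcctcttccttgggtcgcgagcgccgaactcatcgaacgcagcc
ALKBH3: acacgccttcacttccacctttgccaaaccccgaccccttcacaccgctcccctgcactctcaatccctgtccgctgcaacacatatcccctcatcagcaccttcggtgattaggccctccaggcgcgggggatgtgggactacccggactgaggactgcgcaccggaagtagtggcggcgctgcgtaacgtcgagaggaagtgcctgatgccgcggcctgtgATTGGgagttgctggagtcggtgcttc

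The MGMT window held 8 GC-box words and 80.4% G and C, RAD54L held 7 GC-box words and 1 CCAAT box, EXO1 held 1 GC-box word, and ALKBH3 held 1 CCAAT box. A GC-box word stood in 26 of the 42 member promoters in the table (61.9%) and in 42.31% of all 27305 promoters of this length. CCAAT stood in 14 of 42 (33.33%) and in 33.04% of all. The E2F words searched were TTTCCCGC, TTTCGCGC, TTTGCCGC and TTTGGCGC, found in 2 of 42 and in 2.79% of all. The antioxidant response word TGACNNNGC was in 1 of 42 and in 11.03% of all. Neither was found in the 4 windows. A match is a description of letters and not a binding site.

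Under the active compound the members' median absolute log2 change was 0.116 at 10 h, 0.101 at 24 h, 0.097 at 48 h and 0.074 in the mean. Over all genes it was 0.099, 0.088, 0.102 and 0.065, so the size of the members' changes was much like that of genes in general. Averaged over the times, EXO1, the exonuclease that resects broken ends, was higher by a log2 change of 0.22 (1.17-fold), and MGMT, the methyltransferase that removes alkyl groups from guanine, fell by 0.19 (1.14-fold). These were the 2 of 32 members called at an adjusted p below 0.05, where 10.9% of all genes were called (5.41% higher and 5.50% lower). Of all calls 49.6% were higher, and 70.4% were under median scaling, where EXO1 alone of the members was called. At single times no member was called: 0 of 32 at 10 h, where 1.65% of all genes were called, 0 of 32 at 24 h, where 1.92% were, and 0 of 32 at 48 h, where 9.79% were (limma, Benjamini-Hochberg over 10598 genes). At an unadjusted p below 0.05 there were 9 members at 10 h, 1 at 24 h, 4 at 48 h and 10 in the mean over times. The same threshold was passed by 17.6%, 12.8%, 23.5% and 25.1% of all genes. None of the 12 alternative settings called a member at a single time. The count at 10 h rose when treated replicate 2 of that time was left out, which left 1 treated array. The share of all genes called in that fit is not given here, so the rise was not set against it. In bulk RNA, fewer cells of a kind and less RNA per cell cannot be told apart.

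Each 95% interval is for a single gene, reflects spread between arrays only, and is given for the tested members alone. For probes near the filter's limit, whose distance from background is not known, it may not bound the change in RNA. The bound farthest from no change was 1.51-fold at 10 h (FANCB), 1.34-fold at 24 h (FANCC), 1.35-fold at 48 h (ALKBH2) and 1.26-fold in the mean (FANCB). The members' median change was 0.04 at 10 h, 0.0036 at 24 h, -0.06 at 48 h and -0.02 in the mean, and that of all genes was -0.00060, -0.0040, -0.0060 and -0.0026. Treated and vehicle arrays did not overlap for 11 members at 10 h (30.3% of all genes), for 14 at 24 h (30.1%) and for 7 at 48 h (29.0%). Precision is limited throughout by groups of only 2 or 3 arrays.

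**Figure D1:**
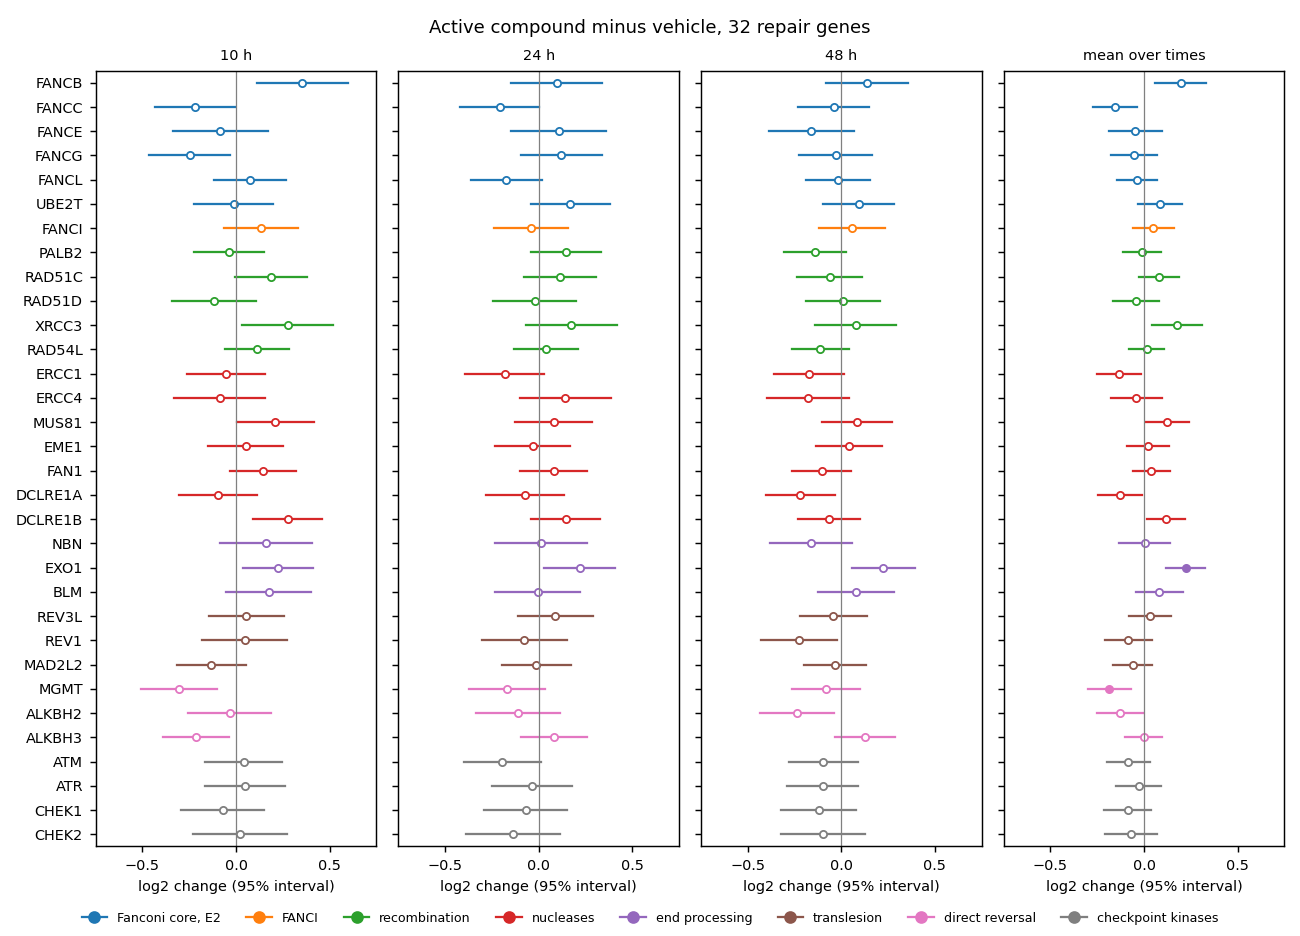
Log2 change of the 32 members, active compound minus vehicle, at 10, 24 and 48 h and averaged over the times, with 95% intervals from the limma fit of 16 arrays. Colours give the role, and a filled point marks an adjusted p below 0.05. Only EXO1 (0.22) and MGMT (-0.19) are filled, both in the mean over times.

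Cell-cycle genes moved in the same arrays. Of 24 G2 and mitosis genes, 16 were lower at 10 h, 5 at 24 h and 8 at 48 h, with median log2 changes of -0.53, -0.18 and -0.15. Their mean level lay between 9.71 and 9.72 on the treated arrays at 10 h and between 10.23 and 10.24 on the vehicle arrays. Of 23 S-phase genes, 1 was higher at 10 h (CCNE2), 5 were lower at 24 h and 7 were lower at 48 h. Many repair genes are transcribed in S phase, and the part of cell-cycle stage in the results below was not tested.

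EXO1 read 9.83, 9.91 and 9.94 on the vehicle arrays at 10 h and 9.97 and 10.26 on the treated arrays. At 24 h its vehicle values were 10.07 on all 3 arrays, and the treated values were 10.32 and 10.26. At 48 h the vehicle values were 9.77, 9.90 and 9.87, and the treated values 10.17, 10.02 and 10.04. All 7 treated arrays lay above every vehicle array of their own time. EXO1 was called on these same arrays, so the separation adds nothing to the call. The share of all genes so separated at every time was not computed. The change was 0.23 at 10 h, 0.22 at 24 h and 0.22 at 48 h, none of them called (adjusted p = 0.194, 0.302 and 0.0878). In the mean over times it was 0.22 (SE 0.05, 95% interval 0.12 to 0.33, adjusted p = 0.00570). The call held when each of the 16 arrays was left out in turn (adjusted p between 0.00136 and 0.0256). A second, dimmer EXO1 probe changed by 0.05, and with the mean of both probes the call was lost (0.14, adjusted p = 0.114); with 1 spread shared by both experiments it was also lost (adjusted p = 0.357).

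MGMT, which repairs O-alkylated guanine by taking the alkyl group onto itself, was the lowest member relative to vehicle at 10 h. Its vehicle arrays read 9.15, 8.99 and 8.96 and its treated arrays 8.63 and 8.83. At 24 h the values were 8.99, 9.04 and 8.84 against 8.75 and 8.82. The groups did not overlap at either time, which is no separate support for the call made on these same arrays. At 48 h they did, with 9.10, 9.14 and 8.99 on the vehicle arrays and 9.11, 9.02 and 8.86 on the treated arrays. The changes were -0.31 at 10 h, -0.17 at 24 h and -0.08 at 48 h (adjusted p = 0.110, 0.499 and 0.631), and -0.19 in the mean (SE 0.05, 95% interval -0.30 to -0.07, adjusted p = 0.0303). That call was lost without any 1 of 8 arrays of the 16 (adjusted p up to 0.123), and under median scaling, no filter on dim probes and the shared spread (adjusted p = 0.335, 0.0707 and 0.421).

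The other direct-reversal enzymes, the dioxygenases ALKBH2 and ALKBH3, were not called at any time. ALKBH3, which demethylates single-stranded DNA and RNA, read 10.76, 10.76 and 10.84 on the vehicle arrays at 10 h and 10.44 and 10.71 on the treated ones. At 24 h the values were 10.84, 10.84 and 10.81 against 10.93 and 10.90, and at 48 h they were 10.85, 10.86 and 10.81 against 10.92, 10.97 and 11.01. The treated arrays were below every vehicle array at 10 h and above every one at 24 and 48 h. The changes were -0.22, 0.08 and 0.13 (adjusted p = 0.185 at 10 h and 0.337 at 48 h), and their difference between 48 and 10 h was 0.34 (SE 0.12, adjusted p = 0.0854).

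Among the 6 genes of the Fanconi core group, none was called, and 2 of 6 were above 0 in the mean over times. FANCB, an X-linked scaffold of the complex, had the highest point value of any member at 10 h: its vehicle arrays read 8.26, 8.13 and 7.87, and its treated arrays 8.57 and 8.31. The change was 0.35 at 10 h (adjusted p = 0.118), 0.20 in the mean (SE 0.07, adjusted p = 0.0567). FANCC, an adaptor subunit, read 6.86, 6.95 and 7.04 against 6.55 and 6.91 at 10 h, and its mean change was -0.16 (adjusted p = 0.0845). FANCE, FANCG and FANCL, the last being the ubiquitin ligase itself, lay between -0.05 and -0.04 in the mean, and UBE2T, its conjugating enzyme, at 0.08. FANCI, the monoubiquitinated clamp subunit, was at 0.05 (95% interval -0.06 to 0.16).

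Of the recombination factors, 0 of 5 were called. XRCC3, a recombination mediator, was highest, with a mean change of 0.18 (SE 0.07, adjusted p = 0.0891). Its treated arrays at 10 h both read 8.11, and its vehicle arrays 7.67, 7.84 and 7.99. RAD51C, another mediator, was at 0.08, RAD54L, a DNA translocase of strand exchange, at 0.01, PALB2, which recruits recombination proteins to breaks, at -0.01, and the mediator RAD51D at -0.04. A second RAD51C probe gave 0.01. The other end-processing genes, the helicase BLM and the break sensor subunit NBN, were at 0.08 and 0.0031.

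Of the 7 nucleases, 0 were called, and their mean changes ran from -0.14 (ERCC1) to 0.12 (MUS81). ERCC1, which with ERCC4 (XPF) cuts beside a crosslink, read 7.46, 7.53 and 7.72 on the vehicle arrays at 10 h and 7.49 and 7.55 on the treated arrays. At 24 h it read 7.53, 7.51 and 7.79 against 7.40 and 7.46, and at 48 h 7.70, 7.68 and 7.60 against 7.56, 7.57 and 7.35. The groups overlapped at 10 h, and the treated arrays were the lower at 24 and 48 h. The mean change was -0.14 (SE 0.06, adjusted p = 0.132), and a second ERCC1 probe gave -0.01. DCLRE1B (Apollo), a telomere and crosslink exonuclease, had the smallest p of any member at 10 h: 7.26, 7.23 and 7.21 on the vehicle arrays against 7.57 and 7.44 (change 0.28, SE 0.09, adjusted p = 0.110). At 48 h it was at -0.07. Its relative DCLRE1A was at -0.22 at 48 h (adjusted p = 0.136), and ERCC4, EME1, the partner of MUS81, and FAN1 lay between -0.04 and 0.04 in the mean.

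The translesion genes were REV1 and REV3L, a deoxycytidyl transferase and the catalytic subunit of polymerase zeta, and MAD2L2, which joins them. Of these 0 of 3 were called. The REV3L probe had a mean of 6.64 on the vehicle arrays of the active-compound experiment, below the filter's limit of 6.65. REV1 was at -0.22 at 48 h (adjusted p = 0.163), with vehicle arrays at 8.411, 8.252 and 8.365 and treated arrays at 8.182, 7.996 and 8.179, which did not overlap.

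All 4 checkpoint kinases had negative mean changes, between -0.09 (CHEK1) and -0.03 (ATR), and 0 of 4 were called. CHEK1, the effector of ATR, read 9.77, 9.67 and 9.88 against 9.73 and 9.67 at 10 h, 9.83, 9.80 and 10.07 against 9.65 and 10.02 at 24 h, and 9.79, 9.96 and 9.86 against 9.75, 9.66 and 9.83 at 48 h. Vehicle and treated values overlapped at every time. ATM, the kinase of double-strand breaks, read 7.49, 7.45 and 7.36 against 7.55 and 7.41 at 10 h, 7.53, 7.37 and 7.23 against 7.22 and 7.14 at 24 h, and 7.51, 7.28 and 7.32 against 7.40, 7.19 and 7.24 at 48 h. Its groups were apart at 24 h alone, and there by little. ATR, the kinase of stalled forks, read 6.94, 6.96 and 6.65 against 6.996 and 6.802 at 10 h, 6.76, 6.82 and 6.96 against 6.83 and 6.79 at 24 h, and 6.88, 6.92 and 6.91 against 6.94, 6.78 and 6.69 at 48 h. ATR and CHEK2 lay close to the filter's limit of 6.65, at mean levels of 6.82 and 6.67. The mean changes of CHEK1, ATM, CHEK2 and ATR were -0.09, -0.08, -0.07 and -0.03, and the 95% interval of CHEK1 ran from -0.21 to 0.04.

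**Figure D2:**
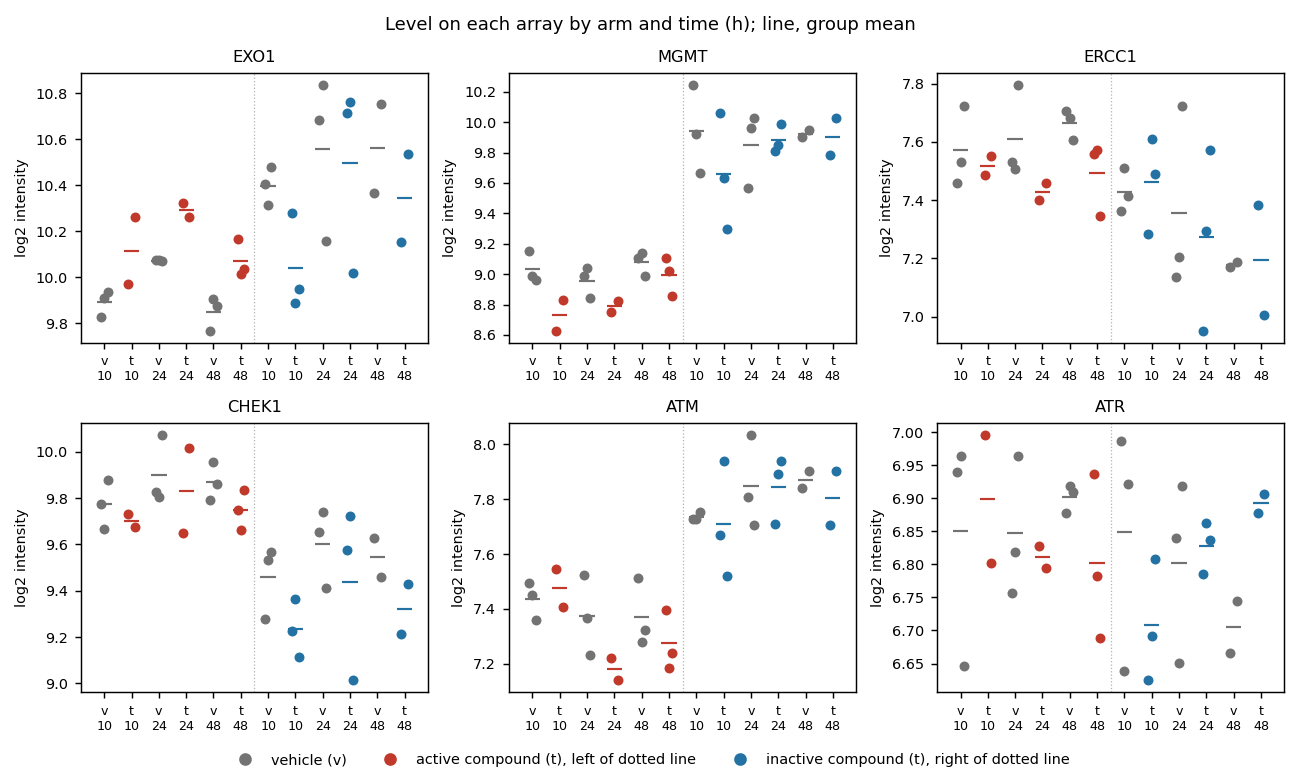
Log2 intensity of EXO1, MGMT, ERCC1, CHEK1, ATM and ATR on each of the 32 arrays, by arm (v, vehicle; t, treated) and time in h; the short lines are group means. Each panel has its own vertical scale. EXO1, which was called on these same arrays, lies above the vehicle arrays of the same time on all 7 arrays treated with the active compound. CHEK1 overlaps at every time under that compound.

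The 7 members below the filter were FANCF and FANCM of the core complex, the helicase BRIP1, the recombination mediators RAD51B and XRCC2, the end-tethering ATPase RAD50 and the ubiquitin ligase RAD18. Their mean levels lay between 6.42 (BRIP1) and 6.65 (RAD50), beside a limit of 6.65. The members just inside it were CHEK2 at 6.67 and ERCC4 at 6.77. The filter used the mean over all 32 arrays, and levels differed between the experiments. CHEK2 and REV3L had means of 6.61 and 6.64 on the vehicle arrays of the active-compound experiment, below the limit. On those of the inactive-compound experiment they had 6.81 and 7.11. Their values under the active compound thus come from probes that were below the limit there. ERCC4 had 6.97 and 6.66 in the same order. The files used give no detection p-value, so it is not known which of these probes were above background.

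Levels were next compared between times within an arm. In the vehicle arrays of the active-compound experiment 0 of 32 members were called between 48 and 10 h, where 11.7% of all genes were. An unadjusted p below 0.05 was found for 8 members and for 25.4% of all genes. The smallest adjusted p was that of FANCI (log2 change -0.24, adjusted p = 0.0677). This count depended on single arrays and settings. It was 1 (NBN) without vehicle replicate 3 at 10 h, the array on the other side of the time axis. It was 2 (UBE2T and RAD51D) without vehicle replicate 3 at 48 h, and 2 (UBE2T and FANCI) under median scaling. Under that scaling 1033 of all genes were called, beside 1244 with quantile normalization. The share of all genes called without those arrays is not given here, so these counts were not set against it. Between 24 and 10 h, 0 of 32 vehicle members were called, where 1.30% of all genes were, and between 48 and 24 h 0 of 32, where 2.87% were, with 4 and 2 at an unadjusted p below 0.05 (14.3% and 16.8% of all genes). NBN was at -0.36 between 24 and 10 h (adjusted p = 0.0953).

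In the arrays treated with the active compound, 8 of 32 members were called between 48 and 10 h, where 24.7% of all genes were. This comparison was added after the data had been seen. Of the calls, 5 were lower at 48 h, where 12.8% of all genes were called lower, and 3 were higher, where 11.9% were. That split depended on the scaling: under median scaling 8 members were called, all of them lower, and the 3 higher calls were lost. The median of all genes in this comparison was -0.0038 with quantile normalization and -0.11 under median scaling, and of all calls 48.2% and 20.6% were higher. NBN, the sensor subunit that recruits ATM to breaks, read 10.11 and 9.87 at 10 h, 9.57 and 9.41 at 24 h, and 9.32, 9.50 and 9.42 at 48 h. It fell by 0.58 on the log2 scale (1.49-fold, SE 0.12, adjusted p = 0.00105). On the vehicle arrays NBN read 10.09, 9.85 and 9.56 at 10 h and 9.66, 9.60 and 9.47 at 48 h, where the groups overlap. The vehicle means were 9.83 and 9.58, so NBN was lower at 48 h there too. The overlap comes from replicate 3 at 10 h (9.56), the array on the other side of the time axis.

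RAD54L read 9.05 and 9.16 on the treated arrays at 10 h and 8.71, 8.71 and 8.77 at 48 h, with no overlap. It fell by 0.38 (SE 0.08, adjusted p = 0.00158); on the vehicle arrays it read 8.95, 9.01 and 9.02 at 10 h and 8.82, 8.87 and 8.82 at 48 h, a change of -0.16 that was not called (adjusted p = 0.187). DCLRE1B was lower at 48 h, with 7.19, 7.09 and 7.22 against 7.57 and 7.44 (log2 change -0.34, SE 0.09, adjusted p = 0.00686). FANCI read 8.54 and 8.68 at 10 h and 8.32, 8.18 and 8.38 at 48 h (-0.32, adjusted p = 0.0167). MUS81 read 9.08 and 8.70 at 10 h and 8.69, 8.57 and 8.56 at 48 h (-0.28, adjusted p = 0.0418), and without single arrays its change ranged from -0.47 to -0.09. All 5 genes were lower on each treated array at 48 h than on either at 10 h. They were picked as called lower on these same arrays, so the separation adds nothing to the calls. The share of all genes so separated was not computed.

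ALKBH3 was higher at 48 h by 0.39 (1.31-fold, SE 0.09, adjusted p = 0.00171) on the values given above. MAD2L2, which read 10.72 and 10.86 at 10 h and 11.06, 11.15 and 11.08 at 48 h, rose by 0.30 (adjusted p = 0.0155). MGMT rose by 0.27, just past the threshold (adjusted p = 0.0498). NBN and RAD54L were called without each array in turn; without treated replicate 1 at 10 h there were 3 calls (NBN, RAD54L and FANCI), and without treated replicate 2 at 48 h there were 4 (ALKBH3, NBN, RAD54L and DCLRE1B). With 1 spread shared by both experiments 2 were called, NBN and ALKBH3. Under median scaling the changes of ALKBH3, MAD2L2 and MGMT were 0.22, 0.12 and 0.10 and were not called (adjusted p = 0.257, 0.591 and 0.694). The MGMT call was also lost with an offset of 16, quantile normalization within each experiment, the authors' log2 values and no filter, and the MUS81 call with that offset and with no filter. The MGMT call was lost without any 1 of 12 arrays (adjusted p up to 0.420).

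Whether treatment changed these time courses is asked by the difference of the effects at 48 and 10 h. None of 32 members was called in it, where 5.11% of all genes were, and 3 had an unadjusted p below 0.05, as did 19.9% of all genes. ALKBH3 was at 0.34 (adjusted p = 0.0854), DCLRE1B at -0.34 (adjusted p = 0.0957) and FAN1 at -0.25 (adjusted p = 0.223). NBN was at -0.32, with a 95% interval from -0.65 to 0.01. Without treated replicate 2 at 10 h, and with no background correction, ALKBH3 was called. S-phase genes were lower in the same treated arrays: 15 of 23 were called lower at 48 than at 10 h, with a median of -0.32, and their part in the members' values was not tested.

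**Figure D3:**
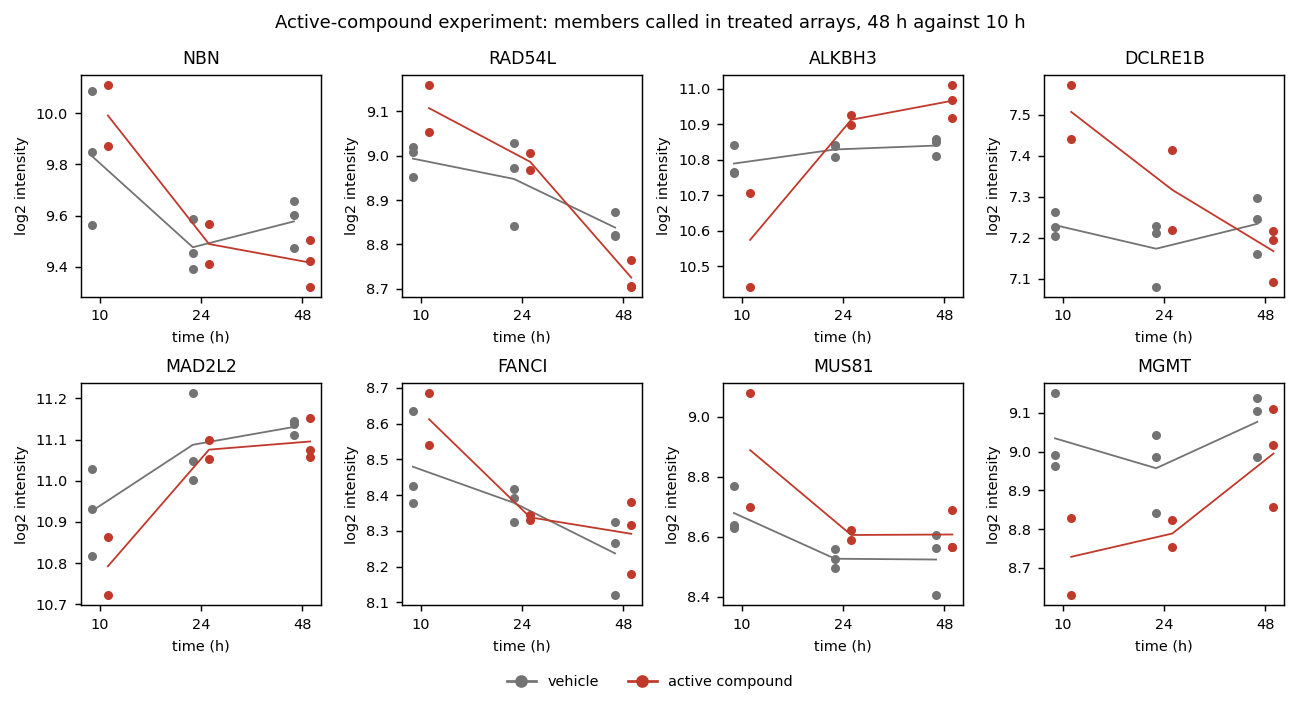
Log2 intensity of the 8 members called between 48 and 10 h in the arrays treated with the active compound (red), with the vehicle arrays of the same experiment (grey); points are arrays and lines join group means. NBN falls by 0.58 and ALKBH3 is higher by 0.39 in the treated arrays. Each panel has its own vertical scale.

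The inactive compound gave no call. At 10, 24 and 48 h and in the mean over times, 0 of 32 members were called, where 0% of all 10598 genes were, and 1, 0, 0 and 1 members had an unadjusted p below 0.05, beside 4.93%, 1.04%, 1.46% and 4.25% of all genes. Arrays were put in runs by the order of the letters that end their titles, whose meaning the labels do not give. Vehicle and treated arrays of a shared time and run deviated together here, so the fit was repeated with each pair as a block. It also called 0 members, and 0, 0, 0 and 10 of all genes. At an unadjusted p below 0.05 there were 5, 1, 0 and 5 members in it, beside 12.1%, 3.83%, 4.33% and 11.1% of all genes. Without the 4 arrays on the other side of the time axis 0 members were called in each comparison, and 0 had an unadjusted p below 0.05. The bounds were wider than for the active compound: the one farthest from no change was 1.73-fold at 10 h, 1.76-fold at 24 h, 1.77-fold at 48 h and 1.40-fold in the mean. Groups did not overlap for 5 members at 10 h (8.29% of all genes), for 1 at 24 h (5.32%) and for 9 at 48 h (27.3%).

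EXO1 read 10.40, 10.31 and 10.48 on the vehicle arrays at 10 h and 10.28, 9.89 and 9.95 on the arrays treated with the inactive compound. At 24 h it read 10.68, 10.83 and 10.16 against 10.71, 10.76 and 10.02, and at 48 h 10.37 and 10.75 against 10.15 and 10.54. The treated arrays were below every vehicle array at 10 h and overlapped them later. Its mean change was -0.21, with a 95% interval from -0.48 to 0.06 (adjusted p = 0.994), and from -0.35 to -0.07 with pairs as a block (adjusted p = 0.251). Without the 4 arrays it was -0.17.

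CHEK1 was lower than its vehicle partner in 8 of 8 pairs, with differences from -0.45 to -0.02. It read 9.28, 9.53 and 9.57 against 9.23, 9.36 and 9.11 at 10 h, 9.65, 9.74 and 9.41 against 9.58, 9.72 and 9.01 at 24 h, and 9.63 and 9.46 against 9.21 and 9.43 at 48 h. Groups overlapped at 10 and 24 h. The mean change of -0.20 was not called in either fit (adjusted p = 0.994, and 0.345 with pairs as a block). PALB2 had a mean change of 0.19 (adjusted p = 0.994 and 0.316). It was higher in 7 of 8 pairs, as were DCLRE1A and ALKBH3, while EXO1 and RAD51C were lower in 7 of 8. The share of all genes with 7 or 8 of 8 pairs on the same side was not computed.

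MGMT read 10.24, 9.92 and 9.66 against 10.06, 9.63 and 9.30 at 10 h, 9.57, 9.96 and 10.03 against 9.81, 9.85 and 9.99 at 24 h, and 9.90 and 9.95 against 9.78 and 10.03 at 48 h. ERCC1 read 7.36, 7.51 and 7.42 against 7.29, 7.61 and 7.49, then 7.14, 7.21 and 7.72 against 6.95, 7.30 and 7.57, and last 7.17 and 7.19 against 7.38 and 7.01. Both overlapped at all 3 times. ATM read 7.73, 7.73 and 7.75 against 7.67, 7.94 and 7.52, then 7.81, 8.03 and 7.71 against 7.71, 7.89 and 7.94, and last 7.84 and 7.90 against 7.70 and 7.90. ATR read 6.99, 6.64 and 6.92 against 6.62, 6.69 and 6.81, then 6.84, 6.65 and 6.92 against 6.79, 6.86 and 6.84, and last 6.67 and 6.74 against 6.88 and 6.91, the only time at which its groups were apart.

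S-phase values are given beside these. All 23 tested genes had a negative mean change under the inactive compound, with a median of -0.18, though none was called. Their mean level lay between 9.07 and 9.25 on the treated arrays at 10 h and between 9.38 and 9.51 on the vehicle arrays, which did not overlap. At 24 h the groups overlapped, between 9.03 and 9.63 on the treated and between 9.26 and 9.71 on the vehicle arrays. Their part in the EXO1 and CHEK1 values was not tested. Between 48 and 10 h in the vehicle arrays of this experiment, 0 of 32 members were called, where 0% of all genes were, and 0 had an unadjusted p below 0.05.

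**Figure D4:**
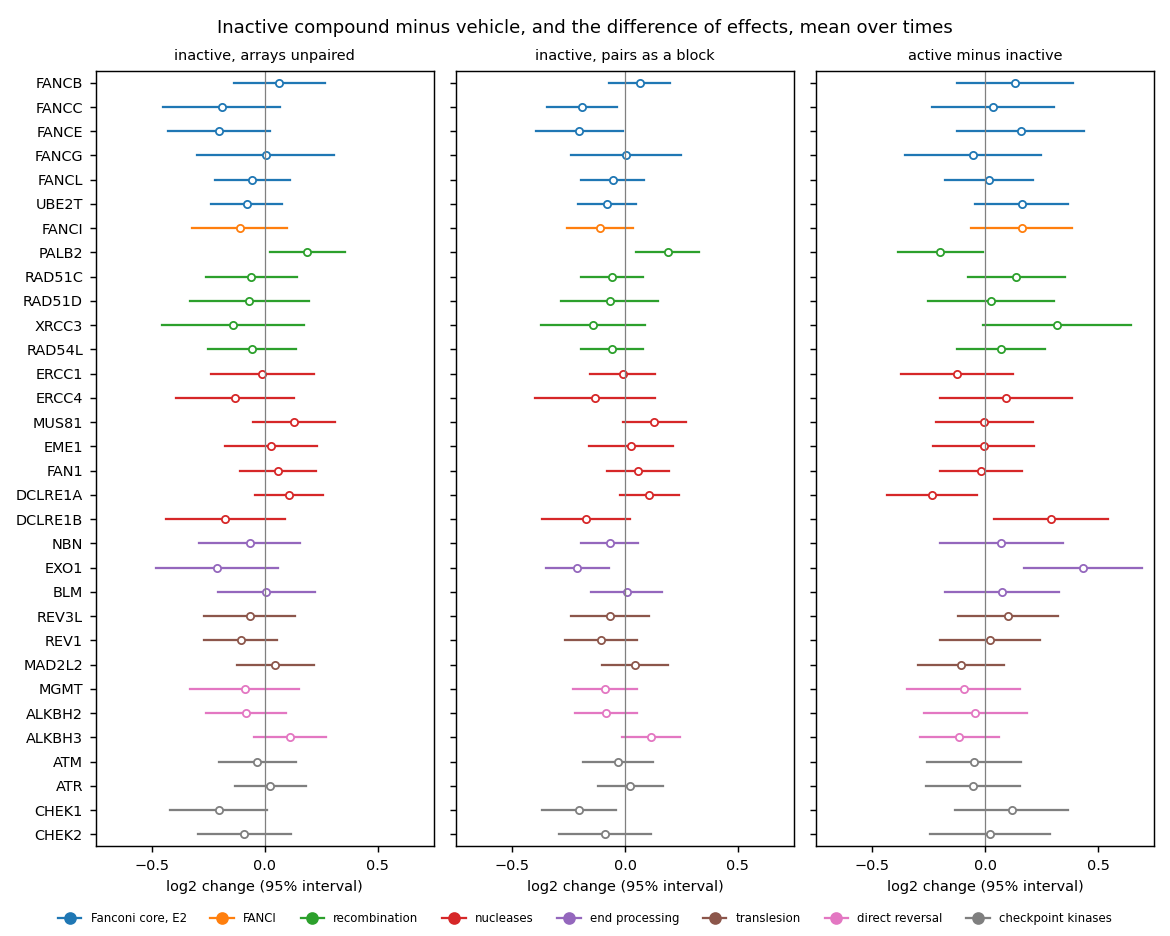
Mean over times of the log2 change under the inactive compound, in the fit of unpaired arrays (left) and with vehicle and treated pairs as a block (middle), and the active minus the inactive effect (right), for the 32 members with 95% intervals. Colours give the role, and every point is open because no adjusted p is below 0.05. EXO1 lies farthest to the right in the difference, at 0.43.

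The same probe read at different levels on the vehicle arrays of the active-compound and inactive-compound experiments for 11 of 32 members, whose ranges over 9 and 8 arrays did not overlap, as for 21.8% of all genes. The 4 genes with values here were picked after their values were seen. FANCI lay between 8.12 and 8.63 on the vehicle arrays of the active-compound experiment and between 9.10 and 9.67 on those of the inactive-compound one. MGMT lay between 8.84 and 9.15 against 9.57 and 10.24, EXO1 between 9.77 and 10.07 against 10.16 and 10.83, and RAD51C between 10.19 and 10.41 against 9.33 and 9.89. Of the 11, 7 were lower and 4 higher in the active-compound experiment. These are levels, not effects of a compound.

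The compounds differ by a hydroperoxy group that lets the active one break down without liver enzymes. Their effects, each against its own vehicle arrays, were set against each other in 1 model of 32 arrays that allowed each experiment its own spread. Since each compound was run in its own experiment, compound and experiment cannot be told apart. In the mean over times 0 of 32 members were called, where 0.179% of all genes were. An unadjusted p below 0.05 was found for 4 members and for 8.87% of all genes. EXO1 had the largest difference, 0.43 (SE 0.13, 95% interval 0.17 to 0.70, adjusted p = 0.202). With pairs as a block it was 0.44 and was called (adjusted p = 0.00871), the 1 member called in that fit, and over the other settings and arrays left out its adjusted p lay between 0.0549 and 0.489. DCLRE1B was at 0.29, DCLRE1A at -0.24 and PALB2 at -0.20, none called (adjusted p = 0.464, 0.445 and 0.516). At single times 0 of 32 were called at 10 h, 24 h and 48 h, where 0.0189%, 0.0283% and 0.0189% of all genes were. A missed threshold does not show that the compounds acted alike. In the mean over times the interval farthest from 0 still allowed a 1.62-fold difference. At single times it allowed 2.02-fold at 10 h (EXO1), 2.02-fold at 24 h (XRCC3) and 1.91-fold at 48 h (EXO1).

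Other genes of the pathway were read in the active-compound experiment against the same shares of all genes called, 1.65% at 10 h, 1.92% at 24 h, 9.79% at 48 h and 10.9% in the mean over times. Of 35 listed crosslink and recombination genes that are not members, 31 were tested. There were 0 called at 10 h, 1 at 24 h, 3 at 48 h and 4 in the mean over times, close to those shares at 48 h and in the mean. RMI1, which dissolves joined DNA molecules together with BLM and a topoisomerase, was lower at 24 h (log2 change -0.48, adjusted p = 0.00976) and 48 h (-0.39, adjusted p = 0.00607). SLX4, the scaffold that binds the nucleases ERCC4 and MUS81, was lower at 48 h (-0.30, adjusted p = 0.0339) and in the mean (-0.31, adjusted p = 0.000791). POLQ, the polymerase of microhomology end joining, was higher at 48 h (0.31, adjusted p = 0.0413). In the mean, RMI1 (-0.21), UIMC1 (-0.18) and BABAM2 (-0.16), both of these parts of a deubiquitinase complex at breaks, were lower too (adjusted p = 0.0153, 0.0382 and 0.0393). The RMI1 call at 24 h was lost without vehicle replicate 2 or treated replicate 2 at that time (adjusted p up to 0.315), and the mean RMI1 call without treated replicate 2 at 24 h (adjusted p = 0.0931). The POLQ call was lost without any 1 of 4 arrays, where its change was as low as 0.20, the SLX4 call at 48 h without any 1 of 5, the UIMC1 call without any 1 of 10 and the BABAM2 call without any 1 of 11. The RMI1 call at 48 h and the mean SLX4 call held without each array. The former was lost under median scaling and with 1 spread shared by both experiments (adjusted p up to 0.297). The latter was lost with the shared spread (adjusted p = 0.117). The RMI1 calls at 24 h and in the mean were lost under median scaling and with the shared spread. Of 12 alternative settings, the POLQ call was lost in 5, the SLX4 call at 48 h in 4, the UIMC1 call in 4 and the BABAM2 call in 5.

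Of 16 listed checkpoint mediators, 14 were tested, and 0 were called at each single time. In the mean 2 were called, where 10.9% of all genes were. CDC25A, the phosphatase that CHEK1 marks for destruction, was higher by 0.23 (adjusted p = 0.00570), and WEE1, the kinase that opposes it, was lower (-0.19, adjusted p = 0.0339). The CDC25A call held without each array but was lost with 1 spread shared by both experiments (adjusted p = 0.475). The WEE1 call was lost without 11 of the 16 in turn (adjusted p up to 0.0951). It was also lost under median scaling, with no filter on dim probes and with the shared spread (adjusted p up to 0.326).

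Of 25 listed excision repair genes 23 were tested, and 0 were called at 10 h, 1 at 24 h, 4 at 48 h and 4 in the mean over times, where 1.65%, 1.92%, 9.79% and 10.9% of all genes were. UNG, the glycosylase that removes uracil, was lower at 24 h (-0.51, adjusted p = 0.0108), at 48 h (-0.64, adjusted p = 9.09e-05) and in the mean (-0.34, adjusted p = 0.000570). At 48 h LIG3, a ligase of short-patch repair, was lower (-0.47, adjusted p = 0.000636), while POLB, the gap-filling polymerase of that pathway, and ERCC6, of transcription-coupled repair, were higher (0.50 and 0.35, adjusted p = 0.000915 and 0.0264). In the mean ERCC2, a helicase of TFIIH, and NTHL1, a glycosylase for oxidised pyrimidines, were lower (-0.25 and -0.19, adjusted p = 0.0101 and 0.0242), as was LIG3 (-0.27, adjusted p = 0.00138). The median over the 23 genes was 0.01 in the mean. Of 13 end-joining and mismatch genes, 10 were tested, and MSH6, a mismatch recognition subunit, was lower at 24 h (-0.46, adjusted p = 0.0122) and 48 h (-0.28, adjusted p = 0.0440). Its 24 h call and that of UNG were lost without vehicle replicate 2 or either treated array of that time, and its 48 h call without any 1 of 8 arrays. The ERCC6 call was lost without any 1 of 4 arrays, the NTHL1 call without any 1 of 2, and the ERCC2 call without treated replicate 1 at 10 h (adjusted p = 0.0674). With 1 spread shared by both experiments both LIG3 calls were lost (adjusted p = 0.102 at 48 h and 0.143 in the mean). The ERCC2 call and the 24 h calls of UNG and MSH6 were lost with it and under median scaling. The NTHL1 call was lost in those settings and with no filter on dim probes, and the ERCC6 call with no filter and the shared spread. The 48 h MSH6 call was lost in 6 of 12 settings. The other UNG calls and the POLB call held in all 12. Under the inactive compound 0 genes of these lists were called.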

How the data were processed

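RNA from PC-3 cells on Illumina bead arrays was read with BeadStudio, and R 2.12.0 is named too, per the submitters' processing notes. The authors deposited a table of linear intensity per probe and a table of log2 values. How the latter was normalized is not given in the sources. That log2 table served as an alternative. Each array's intensity correlated with its own column of the authors' log2 table (lowest Spearman 0.999) and best matched it in 32 of 32 arrays.

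Intensities were background-corrected (normexp, offset 50), quantile-normalized over 32 arrays and put on the log2 scale. Of 20589 probes, 18332 carried 1 gene symbol, 2257 were unlisted and 0 carried several. The upper 60% of probes by mean and the brightest probe per gene left 10598 genes. Each experiment's 16 arrays were fitted as 6 group means with limma 3.58.1 in R 4.3.3. Calls are at a Benjamini-Hochberg adjusted p below 0.05 over all genes. The difference between compounds used 32 arrays with a weight per experiment. Some of the tests, not all, were checked on simulated data, in which the arrays were independent. The effect of a compound averaged over the times and the comparisons between times were not among those checked.

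The members and lists were chosen with earlier results of these data known. By rule, all members with a probe could be named; array values were given for called members, up to 8 per comparison by smallest p, and for MGMT, ERCC1, CHEK1, ATM and ATR; array values of FANCB, FANCC, XRCC3, REV1 and DCLRE1B at single times, and the values of PALB2, were added after they were seen. Of other lists, up to 4 called genes per comparison were named. Each array title ends in letters of its own, and the runs were inferred from their order. What the letters mark is not stated in the labels. Vehicle and treated arrays sharing a time and run were compared in their deviations from the group means. These correlated at 0.16 to 0.69 in the 8 pairs of the inactive-compound experiment, all over 0.1. At 48 h each arm had 2 arrays, whose deviations mirror each other, so both pairs there gave the same value, 0.43. The 8 pairs are thus not separate observations. In the 7 pairs of the active-compound one they correlated at -0.04 to 0.25. The pairs were used as a block as an alternative added after seeing the data. The other alternatives were the background correction and its offset, the normalization, the filter, the probe per gene, the spread model, the arrays in the fit, array weights, the run as a block and leaving out each array.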

Additional observations from a re-analysis of the deposited data

How the results depend on the processing

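Alternatives changed some counts of called members, and where no value below shows the cause, the cause was not tested. Under median scaling 568 of all genes were called for the active compound in the mean over times, beside 1156 with quantile normalization. Between 48 and 10 h it called 1033 genes in the vehicle arrays and 2421 in the treated arrays, beside 1244 and 2621. The shares of all genes called in the other settings are not given here, so those counts were not set against them. For the active compound averaged over the times the count was 2, and it was 1 under median scaling (EXO1), without a filter on dim probes (EXO1) and with the mean of probes (MGMT), and 0 with 1 spread shared by all 32 arrays. For the 48 h minus 10 h effect it was 0, and 1 without background correction. Between 48 and 10 h it was 0 in the vehicle arrays of that experiment, 2 under median scaling, 1 with the upper 40% of probes and 2 with the title-letter run as a replicate block; in the treated arrays it was 8 (3 higher and 5 lower), 2 with the shared spread and 8 under median scaling, all lower (5 of them called with quantile normalization too), and it lay between 6 and 9 in the other settings. For the difference between compounds it was 0, and 1 with the pairs as a block. The replicate block changed no other count of called members. With it the mean EXO1 change stayed called (0.22, adjusted p = 0.00560, for the run; 0.23, adjusted p = 0.0104, for pairs).

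Without single arrays the count ranged from 0 to 7 for the active compound at 10 h, from 1 to 5 in the mean over times, from 0 to 1 for the 48 h minus 10 h effect, from 0 to 2 for the vehicle arrays and from 3 to 8 for the treated arrays, and it was 0 throughout for the other comparisons. In the mean it was 5 without treated replicate 2 at 10 h (EXO1, MGMT, MUS81, FANCB and FANCC) and 4 without treated replicate 2 at 24 h (EXO1, MGMT, FANCB and XRCC3). It was 1 (EXO1) without treated replicate 1 at 10 h, vehicle replicate 1 at 24 h, vehicle replicate 1 at 48 h, treated replicate 1 at 24 h or treated replicate 3 at 48 h. The ATR mean change ranged from -0.063 to 0.0033, and turned positive without treated replicate 2 at 10 h. The shares of all genes called without single arrays are not given here, so no count in this paragraph was set against them. Groups of 2 or 3 arrays, and probes near the filter, limit all these values.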

Other observations

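The active-compound effects at 48 and 10 h were also compared in the repair genes outside the member list, where 5.11% of all genes were called. Those called were 1 of 31 other crosslink and recombination genes, 2 of 14 checkpoint mediators, 3 of 23 excision repair genes and 1 of 10 end-joining and mismatch genes. H2AX, the histone variant phosphorylated at breaks, had a lower effect at 48 h than at 10 h (difference -0.71, adjusted p = 0.0222, limma), as did RAD9A, a clamp subunit of the ATR pathway (-0.53, adjusted p = 0.0306), RMI1 (-0.62, adjusted p = 0.00789), UNG (-0.78, adjusted p = 0.00234), MSH6 (-0.53, adjusted p = 0.0201) and the replicative ligase LIG1 (-0.42, adjusted p = 0.0456). POLB had a higher one (0.77, adjusted p = 0.00204). Of 23 S-phase genes 7 were lower in the same difference, and their part in these values was not tested. The MSH6 and RMI1 calls were lost without treated replicate 1 at 10 h (adjusted p = 0.0629 and 0.0828). The LIG1 call was lost without any 1 of 12 arrays. The RAD9A call was lost without any 1 of 5 (vehicle replicates 1 and 2 and treated replicate 1 at 10 h, vehicle replicate 1 and treated replicate 3 at 48 h), with changes from -0.71 to -0.35. The H2AX call was lost without any 1 of 4 (treated replicate 1 and vehicle replicate 3 at 10 h, vehicle replicate 2 and treated replicate 3 at 48 h), with changes from -1.003 to -0.41. The UNG and POLB calls held without each array, but both were lost with 1 spread shared by both experiments (adjusted p = 0.0864 and 0.0852). The RMI1 call was lost with that spread too. Of 12 alternative settings, the H2AX call was lost in 4, the RAD9A call in 4, the MSH6 call in 3 and the LIG1 call in 6.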
